A study of Rattus norvegicus with 32 samples.

Results

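The left ventricles of female rats that received landiolol during sepsis were compared with those of untreated septic females. Sepsis was induced by CLP (cecal ligation and puncture), an operation in which the bowel is tied and pierced so that its contents leak into the abdomen. Members were chosen by their labels alone: 6 female arrays labelled with CLP and landiolol administration and 5 female arrays labelled with CLP only, 11 of the 32 arrays of the series. The 5 arrays of sham-operated females gave the reference level and shared the estimate of the spread, and the corresponding 11 male arrays served for the comparison between the sexes. All rats were Wistar rats, the hearts were collected at 20 h, and each array held the RNA of 1 left ventricle. According to the methods, CLP rats were randomised to an infusion of landiolol in saline or of saline alone, the saline held no antibiotic, and buprenorphine was given for pain before surgery. The hearts were imaged in the living animal and then perfused outside the body before they were frozen, and RNA of low integrity or amount was not hybridised.

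Landiolol is a β-blocker of brief action that is selective for the β1-adrenergic receptor, the main receptor through which noradrenaline acts on the cardiac muscle cell. When the receptor is occupied, a stimulatory G protein activates adenylyl cyclase, the level of cAMP rises and protein kinase A (PKA) phosphorylates calcium channels, contractile proteins and transcription factors of the CREB family. Phosphodiesterases break cAMP down again, and CREM is a member of the CREB family whose short forms, made from a cAMP-responsive internal promoter, act as repressors. Genes of this chain were therefore described before the others.

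Values are log2 intensities after quantile normalisation of the 16 female arrays, so a difference of 1 is a doubling of the signal. Of the 45598 probes that were not controls, 25394 were kept, those that a female group showed well above background on 80% or more of its arrays, and they covered 14017 named genes. Between 36151 and 38705 spots per female array were well above background, and no spot was saturated. The mean correlation of an array with the others of its group lay between 0.951, for replicate 5 of the CLP group, and 0.979. The 2 female slides each held both groups, but all 6 CLP plus landiolol arrays lay in row 2 of a slide, and 3 of the 5 CLP arrays and all 5 sham arrays lay in row 1. All 10 cardiomyocyte markers, Myh6, Tnnt2 and Ryr2 among them, were well above background on the 11 arrays, and their summed log2 level lay between 21.09 and 21.28 in the CLP group and between 21.04 and 21.29 in the CLP plus landiolol group. In tissue RNA, fewer cells of a type and less RNA per cell cannot be told apart.

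At a false discovery rate (FDR) of 5%, 20 genes differed between the CLP plus landiolol group and the CLP group, 11 of them higher and 9 lower after landiolol (limma, Benjamini-Hochberg). This was 0.143% of the genes tested. They were covered by 22 of the 24 probes called, and the files gave the other 2 probes no gene name. Of the 24 probes, 5 were not well above background on all 11 arrays and were kept only through the group in which they are high, so the counts below are a description and no support for these 5. The adjusted p of the 24 probes ran from 0.0268 to 0.0498, so every call lay close to the threshold. The median size of the change was 1.30 on the log2 scale, and the smallest was 0.73. For 23 of the 24 probes the 6 CLP plus landiolol values did not overlap with the 5 CLP values. The 24 were called on these same arrays, so this separation is a description and no further support. Over all genes, taken at their brightest probe, 193 did not overlap, or 1.38%. At an unadjusted p below 0.05, 6.2% of all genes were higher and 3.5% lower after landiolol, and the median difference over all genes was 0.03. Without regard to p, 7853 of the 14017 genes were higher and 6164 lower, which is the background for the lists below.

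**Figure D1:**
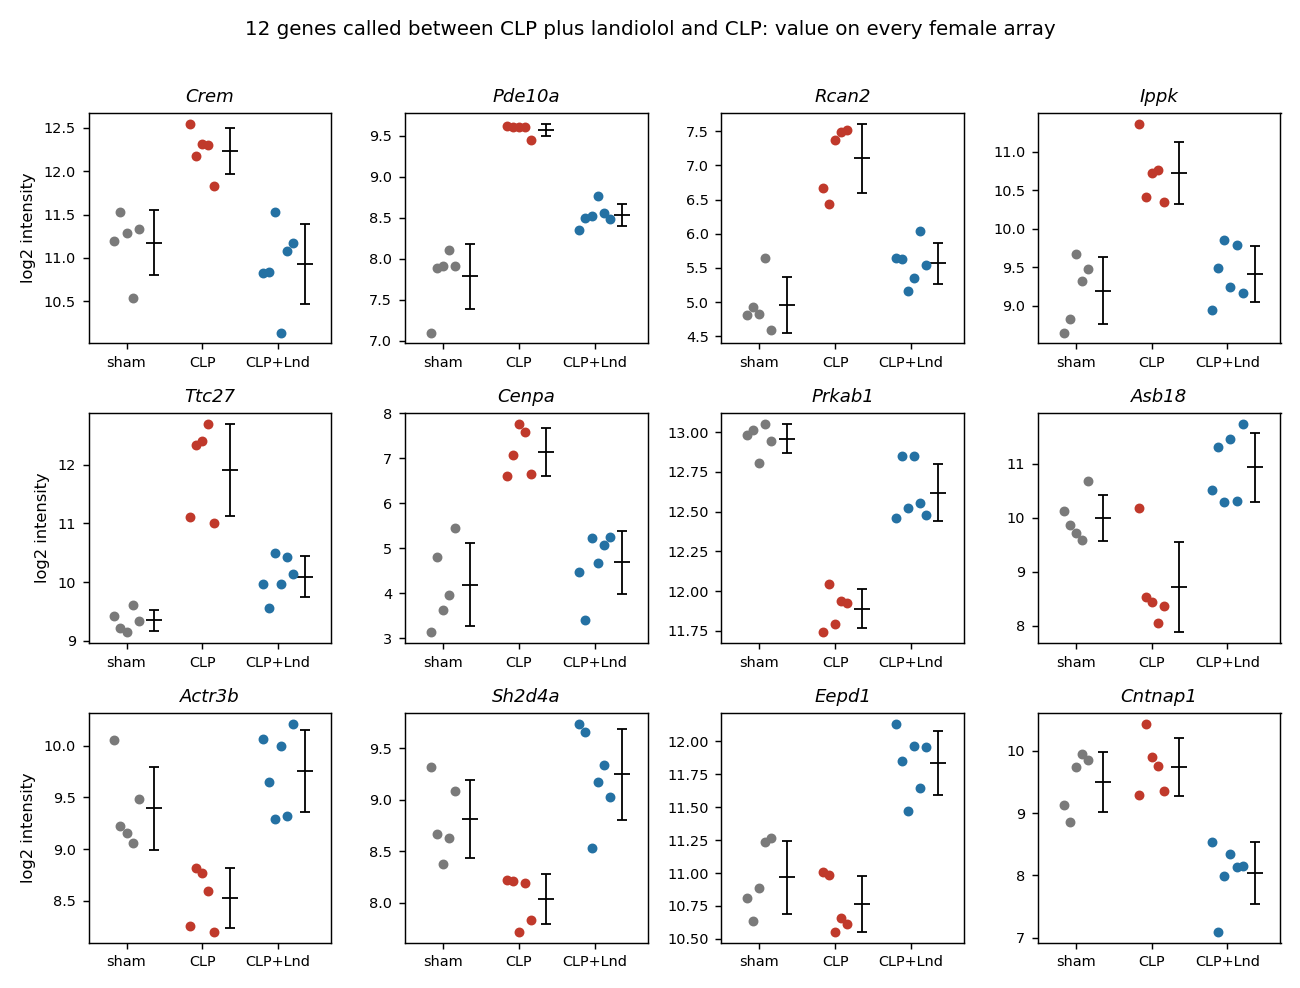
Log2 intensity (vertical axis, different range in each panel) of 12 called genes on every female array, by group (5 sham, 5 CLP, 6 CLP plus landiolol). Points are arrays, and the bar beside each group is its mean with the SD. In every panel the CLP plus landiolol points lie wholly above or wholly below the CLP points.

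Among the called genes of the cAMP chain, Pde10a and Crem were lower after landiolol. Pde10a, a phosphodiesterase that degrades cAMP and cGMP, stood at 9.61, 9.60, 9.60, 9.60 and 9.44 on the CLP arrays. On the CLP plus landiolol arrays it ranged from 8.35 over a median of 8.51 to 8.76, and on the sham arrays from 7.10 over 7.91 to 8.11. The groups did not overlap, and the treated level lay between those of the other groups. The difference was -1.05 (SE 0.15, adjusted p = 0.0268), and the same fit gave 1.79 for CLP vs sham (adjusted p = 2.18e-05) and 0.74 for CLP plus landiolol vs sham (adjusted p = 0.00503). These 3 contrasts share arrays and are not independent of each other.

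Crem was measured by 5 probes within 2411 bases of chromosome 17 (rn4, plus strand), and its coding sequence is known to end in alternative exons. The sequences of the 2 probes that finish on a stop triplet are shown because they stand for different ends of the transcript, and the capitals mark that triplet.
A_64_P126493: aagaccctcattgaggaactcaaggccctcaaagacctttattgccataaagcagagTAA
A_64_P042283: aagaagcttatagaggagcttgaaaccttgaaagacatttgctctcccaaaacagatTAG
The first lies at chr17:62835959-62836018 and the second at chr17:62836355-62836414. The second was called: it stood at 12.55, 12.17, 12.31, 12.30 and 11.83 on the CLP arrays and ranged from 10.14 over a median of 10.96 to 11.52 after landiolol, a difference of -1.30 (SE 0.23, adjusted p = 0.0498). The sham arrays ranged from 10.54 to 11.53, so the treated and the sham groups overlapped while the CLP group stood above both. A_44_P1159383, which starts at position 62836427 just after it, was also called, with -1.29 (SE 0.23). The first, which covers the other end, showed -1.21 (SE 0.31, adjusted p = 0.170) and was not called, and neither was the brightest probe, A_44_P1159378, with -1.24 (SE 0.30, adjusted p = 0.136). The probe nearest the 3' end of the region, A_44_P1089096, differed by -0.18 (SE 0.29). All 5 Crem probes thus had the same sign, and 4 had differences between -1.21 and -1.30.

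No other member of the 3 lists that describe this chain was called. Of 22 measured genes for adrenergic receptors, G proteins, receptor kinases, arrestins and RGS proteins, limma called 0 and SAM, a permutation-based test, also called 0. At an unadjusted p below 0.05, 3 were higher and 0 lower, and the median difference was 0.05. The 3 were Adra1a, the α1A-adrenergic receptor (0.51, SE 0.15), Rgs4, which shortens G protein signalling (0.60, SE 0.18), and Grk4, a receptor kinase (0.52, SE 0.23). Adra1a had 3 probes kept, and 1 of them went the other way with -0.09. Adrb1, the receptor that landiolol blocks, stood at 5.84, 6.58, 6.09, 5.81 and 6.17 on the CLP arrays. After landiolol it ranged from 5.79 over 5.96 to 6.65, and the groups overlapped almost entirely (difference 0.02, SE 0.20, adjusted p = 0.989). The sign of this small difference turned under several of the other settings.

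Of 46 measured adenylyl cyclases, phosphodiesterases, PKA subunits and anchoring proteins, Pde10a was the single gene called. At an unadjusted p below 0.05, 6 were higher and 4 lower, with a median of 0.08. Akap6, which holds PKA and a phosphodiesterase at the nuclear envelope of the muscle cell, ran from 8.91 to 9.31 in the CLP group and from 9.41 to 10.44 after landiolol. This difference of 0.82 (SE 0.16, adjusted p = 0.0596) narrowly missed the threshold although the groups did not overlap. Pde4c differed by 1.03 (SE 0.24, adjusted p = 0.121) and Pde7b, with -0.73 (SE 0.23), went the other way. Among 24 measured genes of cAMP-responsive transcription, Crem was called, and Cited2, a cofactor of CBP and p300, was higher by 1.01 without passing (SE 0.24, adjusted p = 0.135). The others included the orphan receptors Nr4a1 (0.06, SE 0.41) and Nr4a3 (-0.49, SE 0.59), whose standard errors were as large as their differences or larger.

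**Figure D2:**
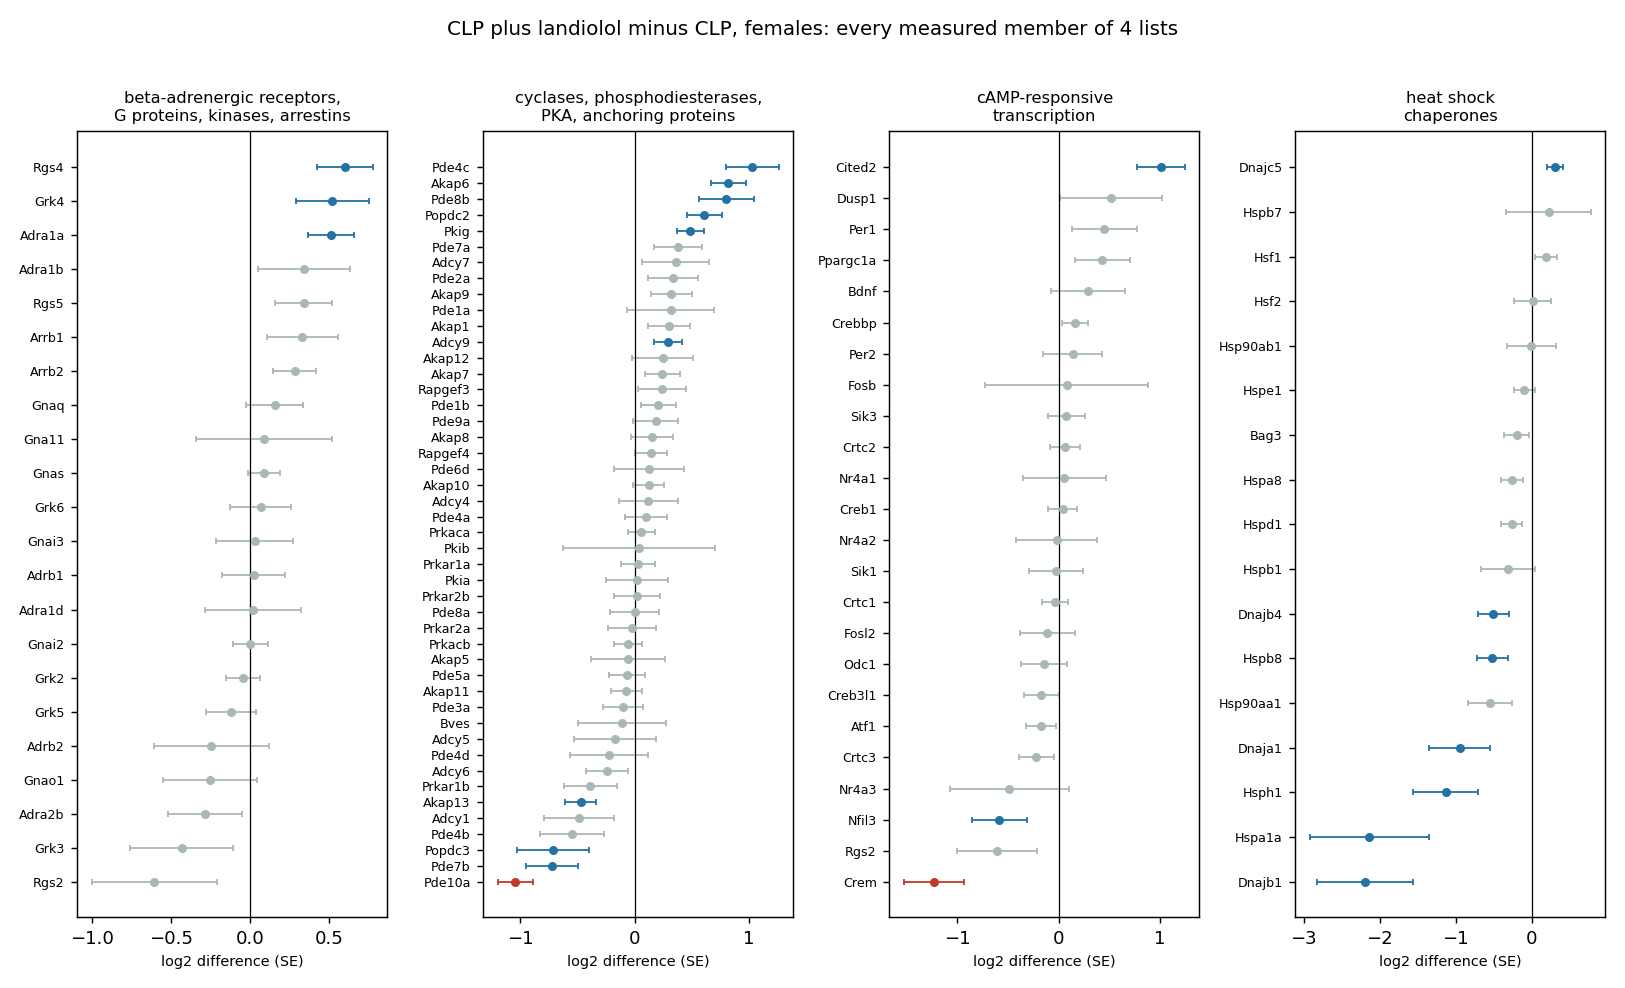
Log2 difference between CLP plus landiolol and CLP in females (horizontal axis, with its SE) for each measured gene of 4 lists, drawn at its brightest probe. Red marks genes with a called probe, blue an unadjusted p below 0.05 and grey the rest. Pde10a and Crem are the 2 red points, at -1.05 and -1.24, the latter for a Crem probe that was not itself called, and 6 of 17 heat shock chaperones are blue on the left.

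Genes of calcium and energy signalling were also among those called. Rcan2 encodes an inhibitor of calcineurin, the calcium-dependent phosphatase that drives hypertrophic gene programmes. Its called probe at chr9:12718086-12718145 (rn4, minus strand) stood at 6.67, 6.44, 7.38, 7.50 and 7.53 on the CLP arrays and ranged from 5.17 over 5.59 to 6.05 after landiolol. The groups were separate, with a difference of -1.54 (SE 0.24, adjusted p = 0.0323), and CLP vs sham gave 2.14 (adjusted p = 0.000114). A brighter Rcan2 probe on the same strand of the chromosome, at chr9:12623919-12623978, differed by -0.33 (SE 0.36, adjusted p = 0.842) and overlapped between the groups. The sequence of the called probe is given because the call rests on this stretch of the gene alone.
Rcan2 A_64_P084851: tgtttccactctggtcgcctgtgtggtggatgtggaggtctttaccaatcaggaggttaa
Of 40 measured genes of calcium cycling and calcineurin signalling, Rcan2 was the single gene called, and the median difference was -0.02. Nfatc2, a target of calcineurin, differed by 1.08 (SE 0.30, adjusted p = 0.197), and 1 of its 3 probes had the other sign.

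Prkab1, a β subunit of the AMP-activated kinase (AMPK) that senses energy shortage, was higher after landiolol. It stood at 11.74, 12.05, 11.80, 11.94 and 11.93 on the CLP arrays, ranged from 12.46 over 12.54 to 12.85 after landiolol and from 12.81 over 12.98 to 13.05 on the sham arrays. The treated values thus filled the gap between the CLP and the sham values. The difference was 0.73 (SE 0.11, adjusted p = 0.0323), against -1.07 for CLP vs sham (adjusted p = 7.48e-05). Of 39 measured genes of AMPK, IGF and insulin signalling, Prkab1 was the single gene called. At an unadjusted p below 0.05, 5 were higher and 0 lower, and the median was 0.11. Irs1, the insulin receptor substrate, differed by 1.05 (SE 0.27, adjusted p = 0.166), Igf1, the growth factor, by 0.55 (SE 0.15, adjusted p = 0.179), and Prkaa2, the AMPK catalytic subunit of muscle, by 0.45. Of the 5 Igf1 probes kept, only 4 had this sign.

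Several called genes belong to protein turnover, the cytoskeleton and the secretory pathway. Asb18, a SOCS box protein of muscle that recruits an E3 ubiquitin ligase, showed the largest rise among the called genes with a signal in both groups. It stood at 10.18, 8.54, 8.45, 8.06 and 8.36 on the CLP arrays, the first far above the others, and ranged from 10.29 over 10.91 to 11.74 after landiolol (2.21, SE 0.37, adjusted p = 0.0468). Fbxw10, an F-box protein, stood at 11.42, 11.33, 11.04, 10.04 and 11.08 on the CLP arrays and ranged from 8.90 over 9.26 to 10.30 after landiolol. It was the called gene whose groups overlapped, since in each group the array numbered 4 stood apart from the others (difference -1.63, SE 0.29, adjusted p = 0.0498). Its sham arrays, from 10.49 to 11.62, lay at the CLP level, and a dim second probe with -1.55 (SE 0.53, adjusted p = 0.332) was not called. Among 30 measured genes of autophagy and muscle ubiquitin ligases, Asb18 was called, and 7 were higher and 1 lower at an unadjusted p below 0.05. Trim63, the muscle ligase MuRF1, differed by 1.15 (SE 0.28, adjusted p = 0.136), and Ube4b, a ubiquitin chain elongation factor, by 1.02 (SE 0.21, adjusted p = 0.0866).

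Actr3b, a form of an Arp2/3 complex subunit that nucleates branched actin, stood at 8.26, 8.82, 8.77, 8.60 and 8.19 on the CLP arrays. It ranged from 9.29 over 9.83 to 10.21 after landiolol, with no overlap, and from 9.06 to 10.05 on the sham arrays (difference from CLP 1.23, SE 0.22, adjusted p = 0.0498). Of 32 measured genes of actin nucleation, the WAVE complex and focal adhesion, limma called Actr3b alone and SAM called 3. By the unadjusted test 6 were higher and 2 lower, with Baiap2l1, an I-BAR protein that shapes membrane protrusions, at 0.84 (SE 0.17, adjusted p = 0.0737), and the kinase Slk at -0.61 (SE 0.13, adjusted p = 0.0866).

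The promoters of 16 called genes were found in the RefSeq table of rat promoters (build GRCr8, 250 bases before to 50 bases after the annotated start). The complete cAMP response element TGACGTCA, which reads the same on both strands, was in 1 of the 16, against 2.74% of the promoters of the 13234 genes kept that had an entry and 1.83% of all 33469 promoters. The half-site TGACG, on either strand and with the complete element included, was in 5 of the 16, against 29% of the promoters of genes kept. The half-sites were those of Actr3b, Col4a5, Crem, Pde10a and Rcan2. A match describes the sequence only, and the window covers neither the internal Crem promoter nor enhancers. The promoter with the complete element, that of Actr3b at chr4:10089313-10089612 (minus strand), is shown with the element in capitals, which begins 73 bases before the start of the gene.
Actr3b promoter: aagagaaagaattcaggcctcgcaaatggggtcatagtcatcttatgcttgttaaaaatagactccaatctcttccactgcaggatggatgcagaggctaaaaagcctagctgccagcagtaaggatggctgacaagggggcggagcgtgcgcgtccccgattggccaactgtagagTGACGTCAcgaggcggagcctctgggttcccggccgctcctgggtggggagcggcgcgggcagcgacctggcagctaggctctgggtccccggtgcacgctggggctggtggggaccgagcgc

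Ern1, which encodes IRE1α, a sensor of unfolded proteins in the endoplasmic reticulum, stood at 4.69, 5.21, 5.18, 4.83 and 5.15 on the CLP arrays and ranged from 5.72 over 5.94 to 6.56 after landiolol (0.98, SE 0.18, adjusted p = 0.0498). A far brighter Ern1 probe differed by 0.99 (SE 0.21) with an adjusted p of 0.0866, and its groups touched, with 10.46 as the highest CLP value and 10.40 as the lowest value after landiolol. Both probes were therefore shifted by about the same amount. Of 29 measured genes of ER stress and the integrated stress response, 24 were higher and 5 lower, with a median of 0.21. Ern1 was the single gene called, and at an unadjusted p below 0.05, 6 were higher and 1 lower. Derl3, a factor of ER-associated degradation, differed by 0.91 (SE 0.21, adjusted p = 0.135) and Manf, a secreted ER chaperone, by 0.50. Tmx4, a thioredoxin-like protein of the ER membrane, was called with 0.88 (SE 0.16, adjusted p = 0.0498), and its levels were 11.67 ± 0.23 after CLP (SD, n = 5) and 12.55 ± 0.19 after CLP plus landiolol (n = 6).

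The remaining called genes with a signal on all 11 arrays had diverse roles. Eepd1, an endonuclease-like protein implicated in repair of replication forks and in cholesterol efflux, went from 10.77 ± 0.22 in the CLP group to 11.84 ± 0.24 after landiolol (SE of the difference 0.16, adjusted p = 0.0268). Its sham level of 10.97 ± 0.28 was close to that of the CLP group, and a dimmer Eepd1 probe differed by 0.39 (SE 0.32, adjusted p = 0.759). Abhd17c, which removes palmitate from proteins, rose by 0.93 (SE 0.17), and Sh2d4a, an adaptor with an SH2 domain, by 1.21 (SE 0.22), both with an adjusted p of 0.0498. Ttc27, a protein with tetratricopeptide repeats, stood at 11.11, 12.34, 12.40, 12.70 and 11.02 on the CLP arrays and ranged from 9.55 over 10.05 to 10.501 after landiolol (-1.82, SE 0.28, adjusted p = 0.0323). Ippk, the kinase that makes inositol hexakisphosphate, was called with both of its probes, at -1.28 (SE 0.21) and -1.31 (SE 0.23). Sardh, the mitochondrial sarcosine dehydrogenase, changed by -1.26 (SE 0.22), and its second probe, with -1.07 (SE 0.27, adjusted p = 0.154), was not called. Cntnap1, a protein of the paranodal junctions of myelinated axons, stood at 9.29, 10.44, 9.90, 9.76 and 9.35 in the CLP group and ranged from 7.09 over 8.15 to 8.54 after landiolol (-1.71, SE 0.28, adjusted p = 0.0461). The treated level of Cntnap1 was also below that of all sham arrays, which ranged from 8.86 to 9.96.

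For 4 called genes a level was reached on only part of the arrays, and their called probes were kept only through the group in which they are high, Cenpa through the CLP group and Akr1c3, Lrrn1 and Col4a5 through the treated group. The filter thus favoured a difference at these probes, and their values are given as a description. Cenpa, the centromeric histone H3 variant, was well above background on 5 of 5 CLP arrays, 4 of 6 CLP plus landiolol arrays and 2 of 5 sham arrays. It stood at 6.60, 7.08, 7.77, 7.59 and 6.65 in the CLP group and ranged from 3.41 over 4.88 to 5.25 after landiolol (-2.45, SE 0.41, adjusted p = 0.0468). A brighter Cenpa probe differed by -0.45 (SE 0.29, adjusted p = 0.681) and overlapped between the groups. Akr1c3, an aldo-keto reductase that acts on steroids, was well above background on 0 of 5 CLP arrays and on all 6 arrays after landiolol, where it was at least 3.45-fold higher (adjusted p = 0.0498). In the same way Lrrn1, a leucine-rich repeat protein of neurons, was at least 2.12-fold higher and Col4a5, a chain of basement membrane collagen, at least 1.96-fold higher, each well above background on 5 of 6 treated arrays (adjusted p = 0.0498). In the table of log2 values that the authors normalised, the differences of Akr1c3, Col4a5 and Lrrn1 were 0.40, 0.05 and 0.00044 on the log2 scale and were not called. The fold bounds set the mean of the treated arrays against the lowest signal that counted as well above background on each CLP array. Where the probe's own value was higher than that signal, it was used instead. The bounds hold only for the normalisation used here. A second Col4a5 probe with signal on all arrays differed by 0.69 (SE 0.14, adjusted p = 0.0876) and was separate between the groups.

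The 2 called probes without a gene name were both higher after landiolol. A_44_P1131598 at chr10:51483692-51483751 (rn4, plus strand) stood at 8.01, 7.23, 7.61, 7.46 and 8.25 on the CLP arrays and ranged from 9.28 over 9.71 to 9.97 after landiolol. The sham arrays ranged from 5.85 to 7.50, so that CLP plus landiolol vs sham gave 3.21 (adjusted p = 6.01e-06) and CLP plus landiolol vs CLP 1.95 (SE 0.27, adjusted p = 0.0268). Its sequence is printed because no gene name identifies it.
A_44_P1131598: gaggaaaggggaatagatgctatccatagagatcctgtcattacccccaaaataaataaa
The other, A_44_P974425, was well above background on 0 of 5 CLP, 5 of 6 treated and 0 of 5 sham arrays and was kept only through the treated group. By the same kind of bound, in the normalisation used here, it was at least 1.93-fold higher than in the CLP group.

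The sham arrays of the same fit place these genes. At an FDR of 1%, 676 genes differed between CLP and sham in females, or 4.82%, and 969 between CLP plus landiolol and sham, or 6.91%. Both contrasts use the same sham arrays. All 5 sham arrays lay in row 1 of their slides and all 6 treated arrays in row 2, so treatment and row cannot be told apart against sham, whereas the CLP arrays lay in both rows. Pde10a, Rcan2, Ttc27, Ippk, Cenpa, Sardh and Prkab1 were called for CLP vs sham, and of these Pde10a was also called for CLP plus landiolol vs sham. For Eepd1, Abhd17c, Ern1, Cntnap1 and Fbxw10 the CLP and sham groups differed by between -0.20 and 0.41 without passing, and the treated group was called against sham, with 0.87, 0.91, 1.39, -1.47 and -1.72, in the contrast that is confounded with the row.

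The study listed 22 genes or transcripts in females as changed by CLP and changed the other way by landiolol, and 19 were measured here by name. The study chose them on these same samples, so they are not independent evidence of direction. By at least 1 probe 7 were called, 2 higher (Prkab1 and Sh2d4a) and 5 lower (Pde10a, Crem, Rcan2, Ippk and Cenpa). Outside these, Mybpc2, the fast skeletal form of myosin-binding protein C, fell short of a call with -1.54 (SE 0.30, adjusted p = 0.0699), from 8.95 ± 0.43 to 7.41 ± 0.48. Ptprn, a protein of secretory granules, differed by -0.64 (adjusted p = 0.226), and Erbb3, a neuregulin receptor, by 0.73 (SE 0.18, adjusted p = 0.136), with a second probe at -0.16. Npepo, an aminopeptidase, differed by 0.83 (SE 0.18, adjusted p = 0.116), Slc16a13, a monocarboxylate transporter, by 0.82 (SE 0.19, adjusted p = 0.121), and Kcnn1, a calcium-activated potassium channel, by 0.73 (SE 0.17, adjusted p = 0.135). Smaller differences were those of Gpr37l1 (0.63) and Osbpl6 (0.51). RGD1309362 was not well above background on any of the 5 CLP arrays, was so on 5 of 6 treated arrays, with levels between 9.06 and 10.46, and stood at 2.17 on treated replicate 5. On 4 of 5 sham arrays it lay between 11.52 and 12.95, and the difference from CLP was not called (adjusted p = 0.187).

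Beyond the called genes, the largest separate differences belonged to genes with a wide spread. LOC100910319 differed by 2.56 (SE 0.50, adjusted p = 0.0699) and Bean1 by 1.93 (SE 0.56, adjusted p = 0.225). Replicate 2 of the CLP group stood at 2.30 for Bean1, with the others between 5.43 and 5.89, and the log2 difference of Bean1 without it was 1.26. Slc26a9, an anion transporter, differed by 1.47 (SE 0.40, adjusted p = 0.184), but it was well above background on 1 of 5 CLP arrays and 2 of 5 sham arrays and was kept only through the treated group. Tgm1, a transglutaminase, stood at 12.37 ± 0.53 in the CLP group and 9.87 ± 0.94 after landiolol (-2.50, SE 0.64, adjusted p = 0.166), and 6.75 ± 1.75 on the sham arrays. 6030498E09Rikl differed by -1.89 (SE 0.39, adjusted p = 0.0853), was well above background on 1 of 6 treated and 0 of 5 sham arrays, and was kept only through the CLP group. None of these passed the threshold.

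Heat shock chaperones had one of the lower medians of the lists. Of 17 measured, 4 were higher and 13 lower, with a median of -0.26, and limma and SAM each called 0. At an unadjusted p below 0.05, 1 was higher and 6 lower. Dnajb1, a co-chaperone of HSP70, ran from 12.74 over 13.37 to 15.10 in the CLP group and from 10.20 over 11.87 to 12.59 after landiolol (-2.19, SE 0.63, adjusted p = 0.224). Hspa1a, the inducible HSP70, differed by -2.13 (SE 0.79, adjusted p = 0.378), with values from 15.35 to 17.25 and from 12.18 to 15.61. On the sham arrays Dnajb1 ran from 10.25 to 14.13 and Hspa1a from 11.44 to 16.45, with sham replicate 1 the lowest for both and the next values at 12.45 and 14.57.

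Cytokine and interferon lists also had medians below that of all genes, and no gene was called in them. Of 38 measured interferon-induced genes, 31 were lower and 7 higher after landiolol (median -0.30), with 0 called by limma or SAM and 2 lower at an unadjusted p below 0.05. Against sham, 14 genes of this list were called lower in the CLP group and 16 in the CLP plus landiolol group. Of 38 measured cytokines, chemokines and their receptors, 28 were lower and 10 higher (median -0.26), again with 0 called by either test and 2 lower at an unadjusted p below 0.05, among them Il6r at -0.92 (SE 0.32, adjusted p = 0.341). The 23 measured acute-phase and secreted defence proteins gave no such picture, with 10 higher, 13 lower, 0 at an unadjusted p below 0.05 and a median of -0.08. Against sham, 12 of them were called higher in the CLP group and 12 in the CLP plus landiolol group, and the genes were not all the same, since S100a9 passed in the treated group alone.

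Cell division and DNA repair genes had the highest median of the 32 pathway lists, 0.30, with 22 of 26 higher. Cenpa was called lower in this list and 0 genes were called higher. By the unadjusted test 6 were higher and 0 lower, with Primpol, a primase-polymerase, at 0.68 (SE 0.14, adjusted p = 0.0853) and Lig4, a DNA ligase of end joining, at 1.14 (SE 0.28, adjusted p = 0.136). The brightest Cenpa probe, which enters the median, was not the called probe. Of 34 measured collagens and basement membrane genes, 22 were higher (median 0.12) and Col4a5 was called. Of 22 aldo-keto reductases and cytochrome P450 enzymes, limma called Akr1c3 and SAM called 2. Cyp27a1, the mitochondrial sterol 27-hydroxylase, differed by 0.83 (SE 0.15, adjusted p = 0.0579).

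Limma called no gene in the lists of this paragraph, which cover parts of muscle structure, energy metabolism and ion channels. Of 44 measured sarcomere and Z-disc genes limma called 0 and SAM 1, with 3 higher and 4 lower at an unadjusted p below 0.05 (median 0.05). Of 54 measured respiratory chain subunits, 28 were higher and 26 lower, with 0 at an unadjusted p below 0.05 and 0 called by either test (median 0.00). Fatty acid uptake and oxidation (38 measured, median -0.05) and glucose uptake and glycolysis (33 measured, median -0.05) had 0 genes called by either test and 1 and 2 genes at an unadjusted p below 0.05. Among 30 measured potassium, sodium and pacemaker channels 0 were called by either test, and 4 were higher and 3 lower at an unadjusted p below 0.05. Kcna5, a potassium channel, differed by 1.64 (SE 0.42, adjusted p = 0.166), but it was well above background on only 3 of 5 CLP arrays.

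**Figure D3:**
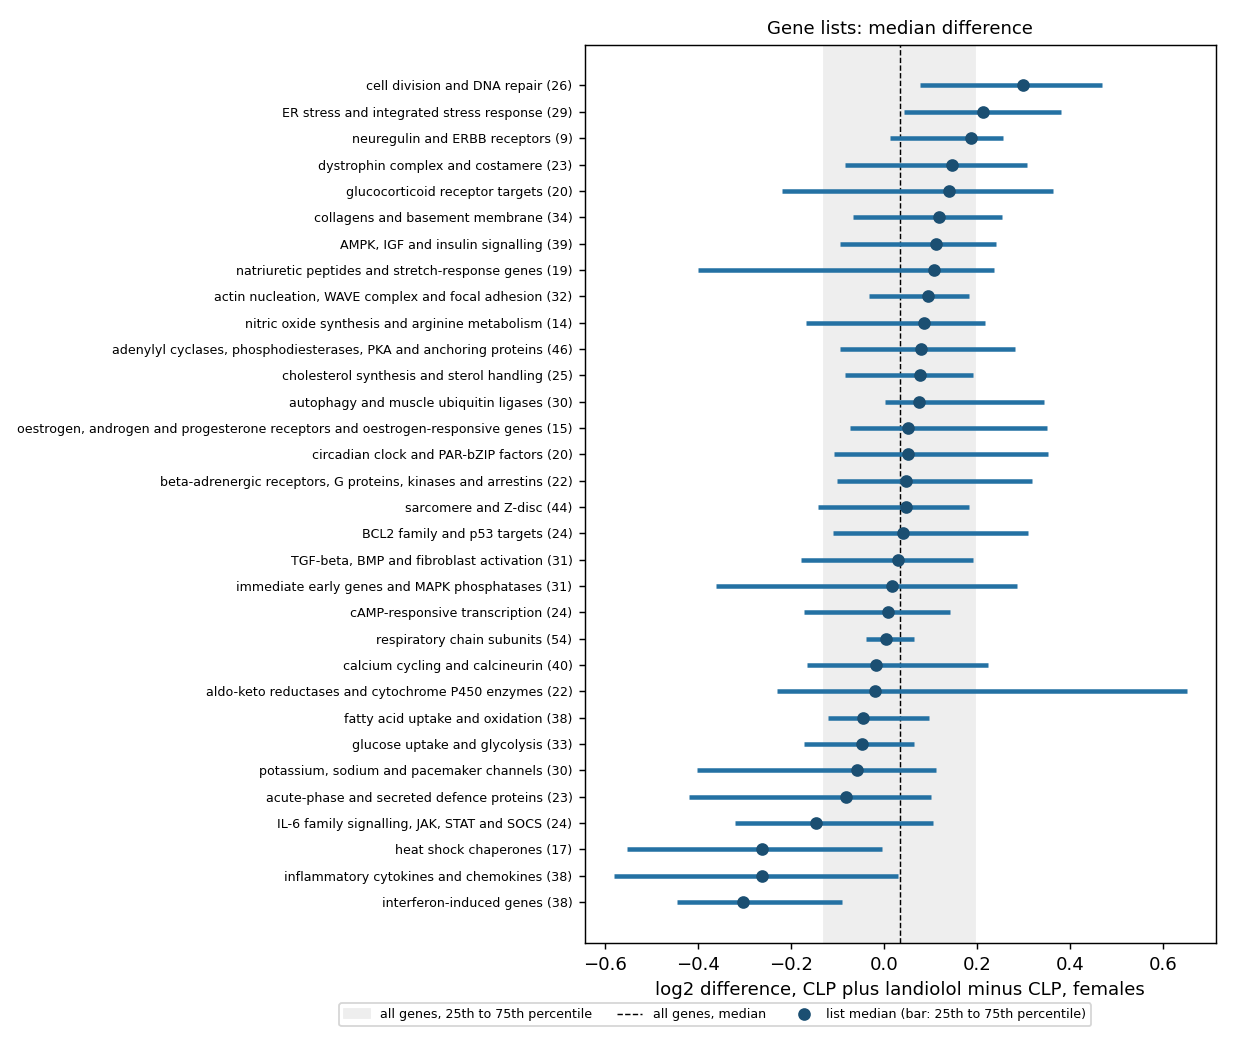
Median log2 difference between CLP plus landiolol and CLP in females (points, horizontal axis) and its 25th to 75th percentile over the measured genes (bars) for 32 gene lists, with the number of genes in brackets. The grey band and dashed line give all 14017 genes, with a median of 0.03. Medians run from -0.30 for interferon-induced genes to 0.30 for cell division and DNA repair.

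No gene of the 15 cell type marker lists was called by limma or SAM. Endothelial markers were higher in 10 of 10 (median 0.28), with Emcn at 0.79 as the 1 gene at an unadjusted p below 0.05, and their summed log2 level ran from 15.45 to 16.42 in the CLP group and from 15.86 to 16.34 after landiolol. Of 6 measured neuronal and intracardiac ganglion markers, 2 were higher and 4 lower (median -0.23), and 0 were higher and 1 lower at that p. Of 18 measured Schwann cell and myelin markers, 11 were higher and 7 lower (median 0.11), and 4 were higher and 0 lower at that p. Among the 4, Gfra3 and Fa2h were each well above background on only 1 of 5 CLP arrays. The summed level of the list ran from 14.52 to 16.24 and from 14.15 to 15.58. It was mostly that of Mobp, with a CLP mean of 15.16 against 11.05 for Pmp22, the next gene, and Mobp differed by -0.38. As with the endothelial markers, the 7 mast cell and 2 adipocyte markers measured were all higher (medians 0.32 and 0.28). Of 13 measured macrophage and monocyte markers, 9 were higher and 4 lower (median 0.17). Among them Msr1, at -0.49, was the 1 gene at an unadjusted p below 0.05. The summed level of the 4 neutrophil markers measured ran from 14.44 to 15.30 and from 13.25 to 15.10. It was almost wholly that of Lcn2, with a CLP mean of 14.89 against 7.16 for S100a8, 6.04 for S100a9 and 4.92 for Fcgr3a. Lcn2 differed by -0.83, Fcgr3a by -0.21, S100a8 by 0.10 and S100a9 by 1.01. A further 3 neutrophil markers were not well above background on any of the 11 arrays. The widest range was that of the erythroid markers, from 10.98 to 17.26 in the CLP group against 10.71 to 13.85 after landiolol and 11.83 to 12.09 on the sham arrays. Hba-a1, a haemoglobin chain, stood at 11.11, 13.48, 11.80, 16.72 and 10.73 on the CLP arrays, so replicate 4 carried most of that signal. All 5 measured erythroid markers were lower after landiolol (median -1.44). For CLP vs sham they disagreed: Slc4a1 differed by -2.96 (limma, adjusted p = 0.000802). Hba-a1, Hba2, Hbb-b1 and Hbb differed by 1.65, 2.36, 2.29 and 2.60 without passing. The part of these cell types in the results was not tested.

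The same contrast in males provided the most similar comparison. Of the 24 probes called in females 23 were kept in males, and 21 of these had the same sign there. The share of all probes with the same sign in both sexes is not given here, so the 21 are a description. The 23 include the called probes of Cenpa, Akr1c3 and Col4a5 and A_44_P974425, which were kept in females only through the group in which they are high. In the male fit 14 of the 23 were called at an FDR of 5%, against 1.56% of the 25864 male probes tested, and they covered 11 genes, all changed in the same direction. The slide rows of the male arrays are not described here, and a part of the row in this agreement was not tested. Crem differed by -1.30 in females and -1.62 in males (adjusted p = 0.000533), Pde10a by -1.05 and -1.22 (adjusted p = 0.0314), Rcan2 by -1.54 and -2.13 (adjusted p = 0.00898) and Ttc27 by -1.82 and -1.76 (adjusted p = 0.000533). Prkab1 showed 0.33 in males (SE 0.15, adjusted p = 0.306) and Col4a5 0.53 (SE 0.25, adjusted p = 0.337).

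**Figure D4:**
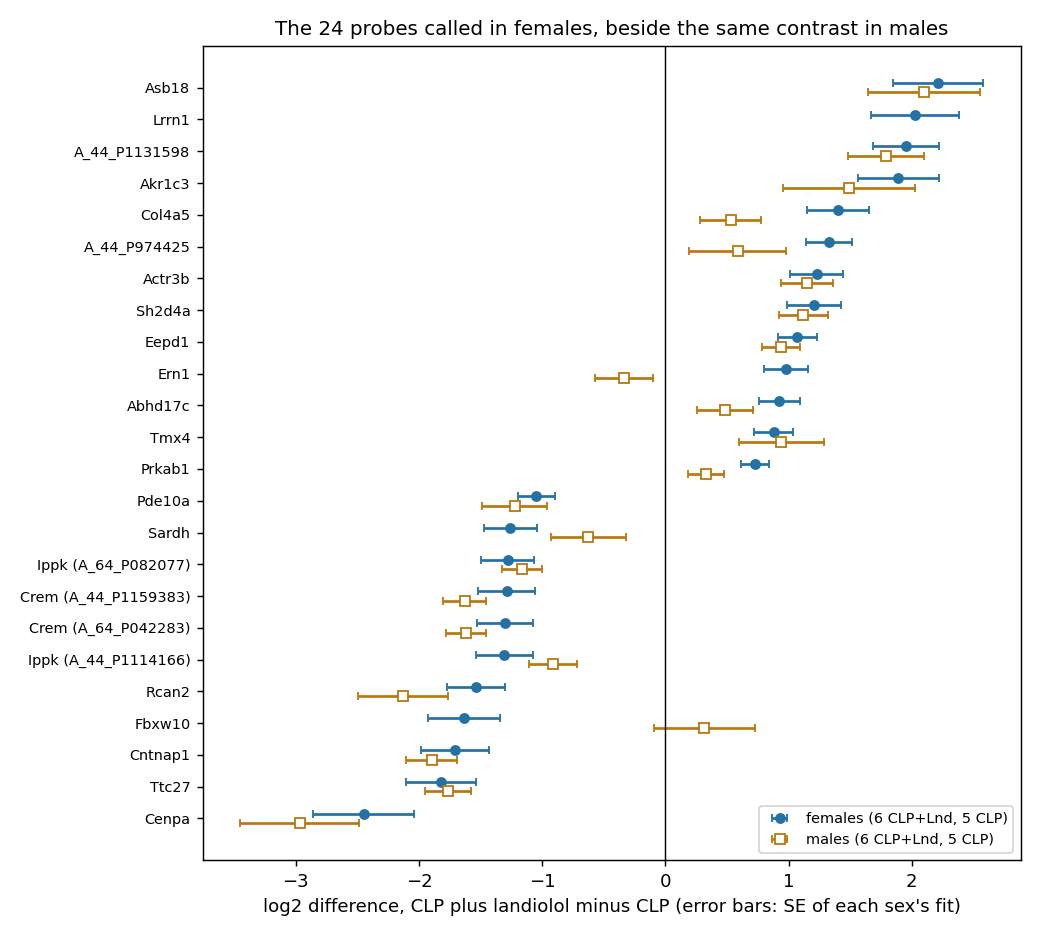
Log2 difference between CLP plus landiolol and CLP (horizontal axis) for the 24 probes called in females, with circles for females and squares for males and the SE of each fit as bars. Ern1 and Fbxw10 are the probes whose male points lie on the other side of 0, at -0.33 and 0.32, and Lrrn1 has no male value because its probe was not kept there.

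An interaction term, fitted after joint normalisation of the 32 arrays, tested the difference between the sexes. Of 26490 probes 0 were called (limma, smallest adjusted p = 0.45), and 1307 had an unadjusted p below 0.05. No other tool was run for this contrast. Female minus male differences with the smallest p among the named genes were 1.31 for Ern1 (SE 0.30), -1.97 for Fbxw10 (SE 0.52) and 0.95 for Npepo (SE 0.25), with limma's adjusted p at 0.915, 0.915 and 0.925.

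The number of calls depended on single arrays and on the position of the arrays. Without any 1 of the 11 arrays the number of genes ran from 0 to 95, while the 24 probes kept their direction in each of these 11 fits. When replicate 5 of the CLP group was left out, 95 genes were called, among them all 20 genes above. The count was 0 when CLP replicate 3 or 4, or treated replicate 1, 2 or 5, was left out, with the smallest adjusted p between 0.057 and 0.0716 and 1907 to 2237 probes at an unadjusted p below 0.05. It was 9 without CLP replicate 1, 1 without CLP replicate 2, 3 without treated replicate 4 and 1 without treated replicate 6. A fit with the slide row included called 0 genes and 1 unnamed probe, with 1476 probes at an unadjusted p below 0.05, while SAM without that term called 48 genes. In that fit the 24 probes kept their direction, each below an unadjusted p of 0.05. Within row 2, where 2 CLP arrays face 6 treated arrays, the 24 probes had the same sign and 23 did not overlap. The signs were also the same within slide 1 and within slide 2. For the 23 probes whose full groups did not overlap, these outcomes were fixed in advance and are no further support. Their direction in the 11 fits without 1 array was fixed in the same way, apart from the renewed normalisation. Row and treatment are partly confounded in this layout, and their effects on the number of calls cannot be fully told apart.

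**Figure D5:**
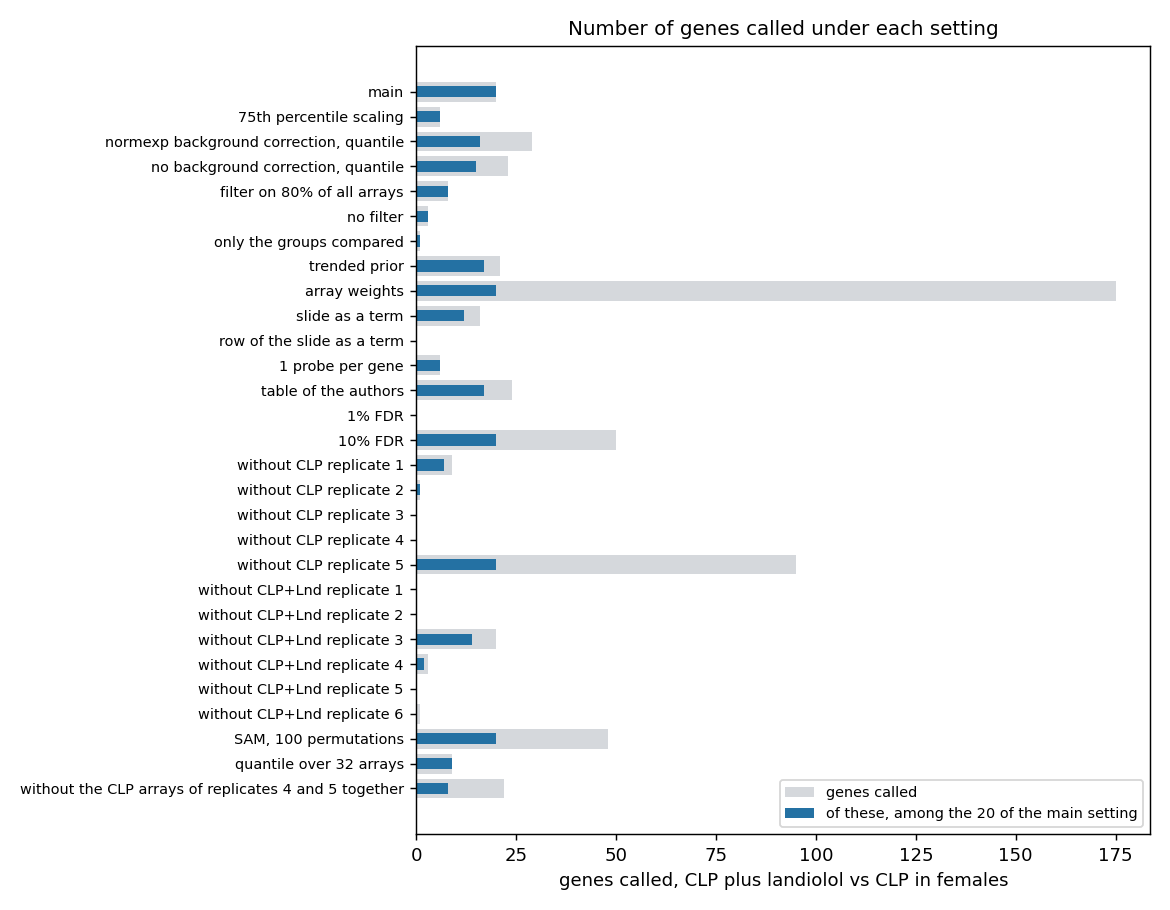
Number of genes called between CLP plus landiolol and CLP in females (horizontal axis) under each setting, with grey bars for all genes called and blue bars for those among the 20 genes of the reported setting. The bars run from 0 in several fits without 1 array to 175 with array weights.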

How the data were processed

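Left ventricular RNA of each rat was hybridised to a 1-colour Agilent array. For every spot the authors deposited the intensity processed by Agilent Feature Extraction 10.5 (background-subtracted, detrended within the array), together with mean and background intensities and quality marks. Their normalised log2 values were deposited as well, and whether an offset was added is not given in the sources used here. Here, processed intensities without control spots and outlier marks were put on the log2 scale, spots of one probe were averaged and the 16 female arrays were quantile-normalised (143 probe values missing). The number of arrays limits the precision.

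The 3 female groups entered one limma 3.58.1 model in R 4.3.3 (lmFit, eBayes, adjustment by Benjamini-Hochberg over 25394 probes), and files were read with data.table (version 1.17.8). The fit was tested on simulated data with 200 of 25316 probes changed. It called 37.4% of the changes of size 1 on the log2 scale and 87.1% of those of size 2. A gene that was not called may therefore still differ. SAM, other normalisations, filters, terms for slide and row, and leaving out arrays were the alternatives. The labels give no pairing. Probe coordinates are those of the files (rn4). The files named 27857 probes by a current symbol and 2359 by an older one, a RefSeq table named 975 by accession, and 14407 had no name. A gene is given by its brightest kept probe, or its brightest called probe. The rule for naming took the called genes, the genes that the study's female lists give both as changed by CLP and as changed the other way by landiolol, up to 3 genes per list with the smallest p, Adrb1, the markers, and the 5 largest rises and falls without overlap. Prkaa2, Manf, Pde7b, Nr4a1 and Nr4a3 lie outside it and were chosen after their values were seen. The members, gene lists and tests were chosen with earlier results of these data known. One result is not reported here.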

Additional observations from a re-analysis of the deposited data

Results flagged for a closer look

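Among the called genes, the genes of the study's female tables and Adrb1, 70 groups of 5 or 6 arrays were examined for an array that stands apart, and 7 were found, where chance flags about 1 in 20 groups. Asb18 stood at 10.18 on replicate 1 of the CLP group, with 8.54 as the nearest value. Igf1 stood at 10.89 on the same array, next to 10.34. Fbxw10 stood at 10.04 on replicate 4 of the CLP group and at 10.30 on replicate 4 of the CLP plus landiolol group, which are the arrays that make its groups overlap. Ern1 stood at 6.56 on replicate 3 of the CLP plus landiolol group, next to 6.02. Pde10a stood at 9.44 on replicate 5 of the CLP group, 0.16 below the nearest of the 4 others, which agreed within 0.02. RGD1309362 stood at 2.17 on replicate 5 of the CLP plus landiolol group, not well above background there, with 9.06 as the nearest value.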

How the results depend on the processing

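All 24 probes called kept their direction in every alternative that tested them, but the number of genes called did not hold. The 24 were chosen by their difference on these same arrays, so the kept direction is a description. Against 20 genes, 6 were called after scaling to the 75th percentile (1 higher, 5 lower), 8 with the background filter over all arrays, 3 without a filter, 1 with only the groups compared in the fit, 6 with 1 probe per gene, 9 after normalisation over 32 arrays, 175 with array weights, 48 by SAM, 50 at 10% FDR, 0 at 1% FDR and 0 with the slide row as a term. Leaving out 1 array gave 0 to 95 genes, and the difference between the sexes gave 0 to 1 probes. With normexp, no background correction, a trended prior, the slide as a term and the authors' table, 29, 23, 21, 16 and 24 genes were called, and in the authors' table Akr1c3, Col4a5 and Lrrn1 were not (log2 difference of Akr1c3 0.40, log2 difference of Col4a5 0.05 and log2 difference of Lrrn1 0.00044). Without CLP replicates 4 and 5 together, which was added after the data had been seen, the count was 22, of which 8 were among the 20. The log2 difference of Adrb1 changed its sign with 75th percentile scaling (-0.0341), without background correction (-0.0016916) and without CLP replicates 4 and 5 (-0.0483), and leaving out 1 array moved it from -0.0839 to 0.145. The log2 difference of Ndufa5, a respiratory chain subunit, turned from 0.15 to -0.0297 with the row term. The causes were not tested. No paired analysis was possible because the labels carry no replicate numbers that pair rats. Dim probes near background carry the least precise values.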

Other observations

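Several lists not described above had no gene called by limma. Their counts and medians stand beside 7853 higher and 6164 lower over all 14017 genes, with a median of 0.03. Among 25 genes of cholesterol synthesis and sterol handling, 16 were higher and 9 lower (median 0.08), and SAM called 2. Insig1, which restrains sterol synthesis, differed by 0.70. Of 20 glucocorticoid receptor targets 13 were higher (median 0.14), with Klf9 at 0.71, and of 20 circadian clock genes 12 were higher (median 0.05), with Tef at 0.68. Of 31 genes of TGF-beta and BMP signalling 17 were higher (median 0.03), with Ctgf at 1.42. SAM called 0 genes in these last 3 lists, in which 2 higher and 1 lower, 3 higher and 1 lower, and 2 higher and 2 lower passed the unadjusted test.

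A median below 0 was found for the 24 genes of IL-6 family signalling, with 9 higher and 15 lower (median -0.15). The lists of immediate early genes (31, median 0.02), BCL2 family and p53 targets (24, median 0.04), natriuretic peptides and stretch-response genes (19, median 0.11), oestrogen, androgen and progesterone receptors with oestrogen-responsive genes (15, median 0.05), nitric oxide synthesis (14, median 0.09) and neuregulin and ERBB receptors (9, median 0.19) had medians above 0. Neither limma nor SAM called a gene in these lists, in which 1 higher and 2 lower, 4 higher and 2 lower, 3 higher and 1 lower, 1 higher and 2 lower, 1 higher and 0 lower, 0 higher and 1 lower, and 2 higher and 0 lower passed the unadjusted test.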
